A study of Mus musculus with 3 samples.

Results

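The levels of 8 genes of the Notch pathway and of the choice of secretory fate were followed across the cell classes of the mouse small intestine. They were the receptors Notch1 and Notch2, the ligands Dll1, Dll4 and Jag1, the target gene Hes1, and the transcription factors Atoh1 and Gfi1. They were chosen by gene symbol, and all 8 were found among the 31053 genes listed for each library. Cells were prepared from 3 segments of the small intestine (duodenum, jejunum, ileum) of male wildtype (WT) C57BL/6N mice aged 12 weeks, with no treatment. Cells of 3 mice were pooled, sorted for live cells by exclusion of propidium iodide, and run as 1 single-cell 3′ library (10x Genomics) per segment. A segment therefore had no replicate, and differences between segments were not tested. Classes of cells were compared with the 3 libraries as blocks. The epithelial classes compared shared 1 fit and 1 estimate of the spread. T and B cells, and the parts of the villus, had fits of their own. The p-values therefore measure how far differences between classes varied over 3 libraries, each of another segment. They do not measure the spread between mice, which were pooled.

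Of 27235 barcodes, 16686 passed the filters on depth and mitochondrial share, and 21 of the kept barcode sequences occurred in a pair of libraries. The libraries held between 78074516 and 98518847 unique molecular identifiers (UMIs, counted transcript molecules). The ileal cells were shallower, with a median of 5536 UMIs against 11737 in the jejunum and 12424 in the duodenum, and their median mitochondrial share was 11.1% against 27.2% and 27.1%. Clusters were formed without the 8 genes and without 63 other genes of the pathway, and were named from fixed markers, so each class name stands for cells that resemble that type. The classes used most were 230 intestinal stem and proliferating cells (ISC/proliferating), 1158 early enterocytes, 10446 enterocytes, 748 goblet cells, 171 enteroendocrine cells (EECs), 297 tuft cells, 1235 T cells and 569 B cells. The ileum gave 1090 of the T cells and 510 of the B cells. All 11 ISC/proliferating markers were found in at least 10% of the ISC/proliferating cells, and the same held for all 8 goblet, 9 EEC and 9 tuft markers in their own classes. It held for 8 of the 9 early enterocyte markers. Reaching 10% was not specific to a class. In enterocytes 7 of the 8 goblet markers did, at a summed 4.94 to 15.3 UMIs per 10000 against 3758 to 4159 in goblet cells. All 13 enterocyte markers did so in goblet cells, EECs and tuft cells.

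Notch receptors are activated when a ligand on a neighbouring cell binds them, after which a protease complex frees the intracellular part of the receptor. That part enters the nucleus, joins the DNA-binding protein RBPJ and switches on target genes such as Hes1, a repressor. In the intestinal crypt, Hes1 represses Atoh1, the factor required for goblet cells, Paneth cells and EECs. Cells with Notch activity thereby become absorptive, and cells that escape it become secretory and carry the ligands Dll1 and Dll4. Gfi1 acts downstream of Atoh1 and favours goblet and Paneth cells over EECs, and it is also a repressor used widely in lymphocytes.

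The 8 genes lie on 6 autosomes of the mouse genome (build GRCm38). Atoh1 has a single exon at chr6:64729125-64731245, and Dll4 has 11 exons at chr2:119325784-119335962, both on the plus strand. Dll1 has 11 exons at chr17:15367354-15376872 and Gfi1 has 6 exons at chr5:107716657-107726036, both on the minus strand. Hes1 has 4 exons at chr16:30064384-30067796, and the receptor genes have 34 exons each, Notch1 at chr2:26457903-26516663 and Notch2 at chr3:98013527-98150361. Jag1 has 26 exons at chr2:137081456-137116644. RefSeq promoter windows (250 bases before to 50 after a start, build GRCm38.p6) were matched for 7 of the 8 genes, in 9 windows, and Hes1 had no entry.

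The promoters of Atoh1, Dll4 and Dll1 are shown because these 3 genes had their highest pooled level in the same class, the goblet cells. For Dll4 the interval overlapped that of EECs, which were higher in the ileum. Capitals mark matches on either strand to the N-box CACNAG, which HES proteins bind, and to the E-box CAGCTG, which bHLH factors such as ATOH1 can bind.
Atoh1, chr6:64728875-64729174, plus strand: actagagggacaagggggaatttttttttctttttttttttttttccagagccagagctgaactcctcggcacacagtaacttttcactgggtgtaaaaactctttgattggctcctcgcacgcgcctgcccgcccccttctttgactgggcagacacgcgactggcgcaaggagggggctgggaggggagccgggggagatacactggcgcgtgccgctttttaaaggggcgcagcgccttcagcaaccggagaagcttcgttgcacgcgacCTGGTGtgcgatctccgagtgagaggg
Dll4, chr2:119325534-119325833, plus strand: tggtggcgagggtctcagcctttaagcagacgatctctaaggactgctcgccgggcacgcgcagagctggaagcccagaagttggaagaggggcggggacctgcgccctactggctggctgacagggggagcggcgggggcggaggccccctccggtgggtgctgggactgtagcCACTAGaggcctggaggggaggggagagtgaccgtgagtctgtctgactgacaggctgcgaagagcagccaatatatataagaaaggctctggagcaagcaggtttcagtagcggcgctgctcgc
Dll1, chr17:15376883-15377182, minus strand: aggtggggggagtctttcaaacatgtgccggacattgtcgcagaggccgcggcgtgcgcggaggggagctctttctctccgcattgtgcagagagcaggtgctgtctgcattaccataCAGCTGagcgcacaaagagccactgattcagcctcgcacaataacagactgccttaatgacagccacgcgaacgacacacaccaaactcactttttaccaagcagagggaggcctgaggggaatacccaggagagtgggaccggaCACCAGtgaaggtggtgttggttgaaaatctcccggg
Counted from 0 at the start, the N-box began at 23 in Atoh1, at -75 in Dll4 and at 13 in Dll1, where an E-box also began at -132. Among the 32851 promoter windows of the table, 42.5% held an N-box and 16.3% held an E-box. The Notch1 window held 3 N-boxes, the Notch2 window 1, the Jag1 window 1 E-box, and both Gfi1 windows and the other Dll1 window held neither. The RBPJ core TGGGAA, found in 25.6% of all windows, was in none of the 9. Each motif was searched on both strands and matches could overlap, as 2 of the 3 N-boxes of Notch1 did (at -3 and -1). A match describes letters in the window and not a bound site, and no match says only that these letters are not in it.

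Levels are given as UMIs of a gene per 10000 UMIs of all genes, summed over the cells of a class in 1 library. Intervals are exact Poisson or Clopper-Pearson 95% intervals and cover counting error only. Fold changes are on the log2 scale and come, with p-values adjusted over all genes tested by the Benjamini-Hochberg method, from the quasi-likelihood test of edgeR, scaled by the trimmed mean of M values (TMM), which sets the typical gene to no change. A change is called where the adjusted p lay under 0.05.

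Against enterocytes, 7 of the 8 genes were called in the ISC/proliferating cells (5 higher, 2 lower), where 70.1% of the 11250 genes tested were (34.5% higher, 35.6% lower). In early enterocytes 5 were called (3 higher, 2 lower) against a background of 48% (22.9% and 25.1%). In goblet cells 5 were called, all higher, against 45.6% (20.9% higher and 24.6% lower). In tuft cells 4 were called (1 higher, 3 lower) against 53.9% (25.9% and 28%), and in EECs 3 (1 higher, 2 lower) against 60.1% (29.9% and 30.1%). Goblet cells differed from ISC/proliferating cells in 7 of the 8 genes (4 higher, 3 lower), against 57.1% of all genes (29.4% and 27.7%), and EECs in 4 (1 higher, 3 lower), against 46.2% (24.5% and 21.6%). EECs differed from goblet cells in 5 genes (1 higher, 4 lower), against 39% (19.9% and 19.1%), and tuft cells in 7 (1 higher, 6 lower), against 37.7% (18.6% and 19%). In several pairs the share of the 8 genes called was thus close to that of all genes, and the size and direction of each gene's change are given one by one. The scaling bears on direction. Without TMM the median gene moved from -0.03 to 0.73 between ISC/proliferating cells and enterocytes, and the share of calls that were higher moved from 49.2% to 70.8%. That share moved from 47.8% to 68.3% for early enterocytes, from 48.0% to 70.9% for tuft cells and from 49.9% to 76.5% for EECs, each against enterocytes, and from 51.5% to 22.3% for goblet against ISC/proliferating cells. It moved from 51.0% to 87.5% for EECs and from 49.5% to 79.0% for tuft cells, each against goblet cells. The goblet to enterocyte comparison barely moved (45.9% to 46.0%).

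**Figure D1:**
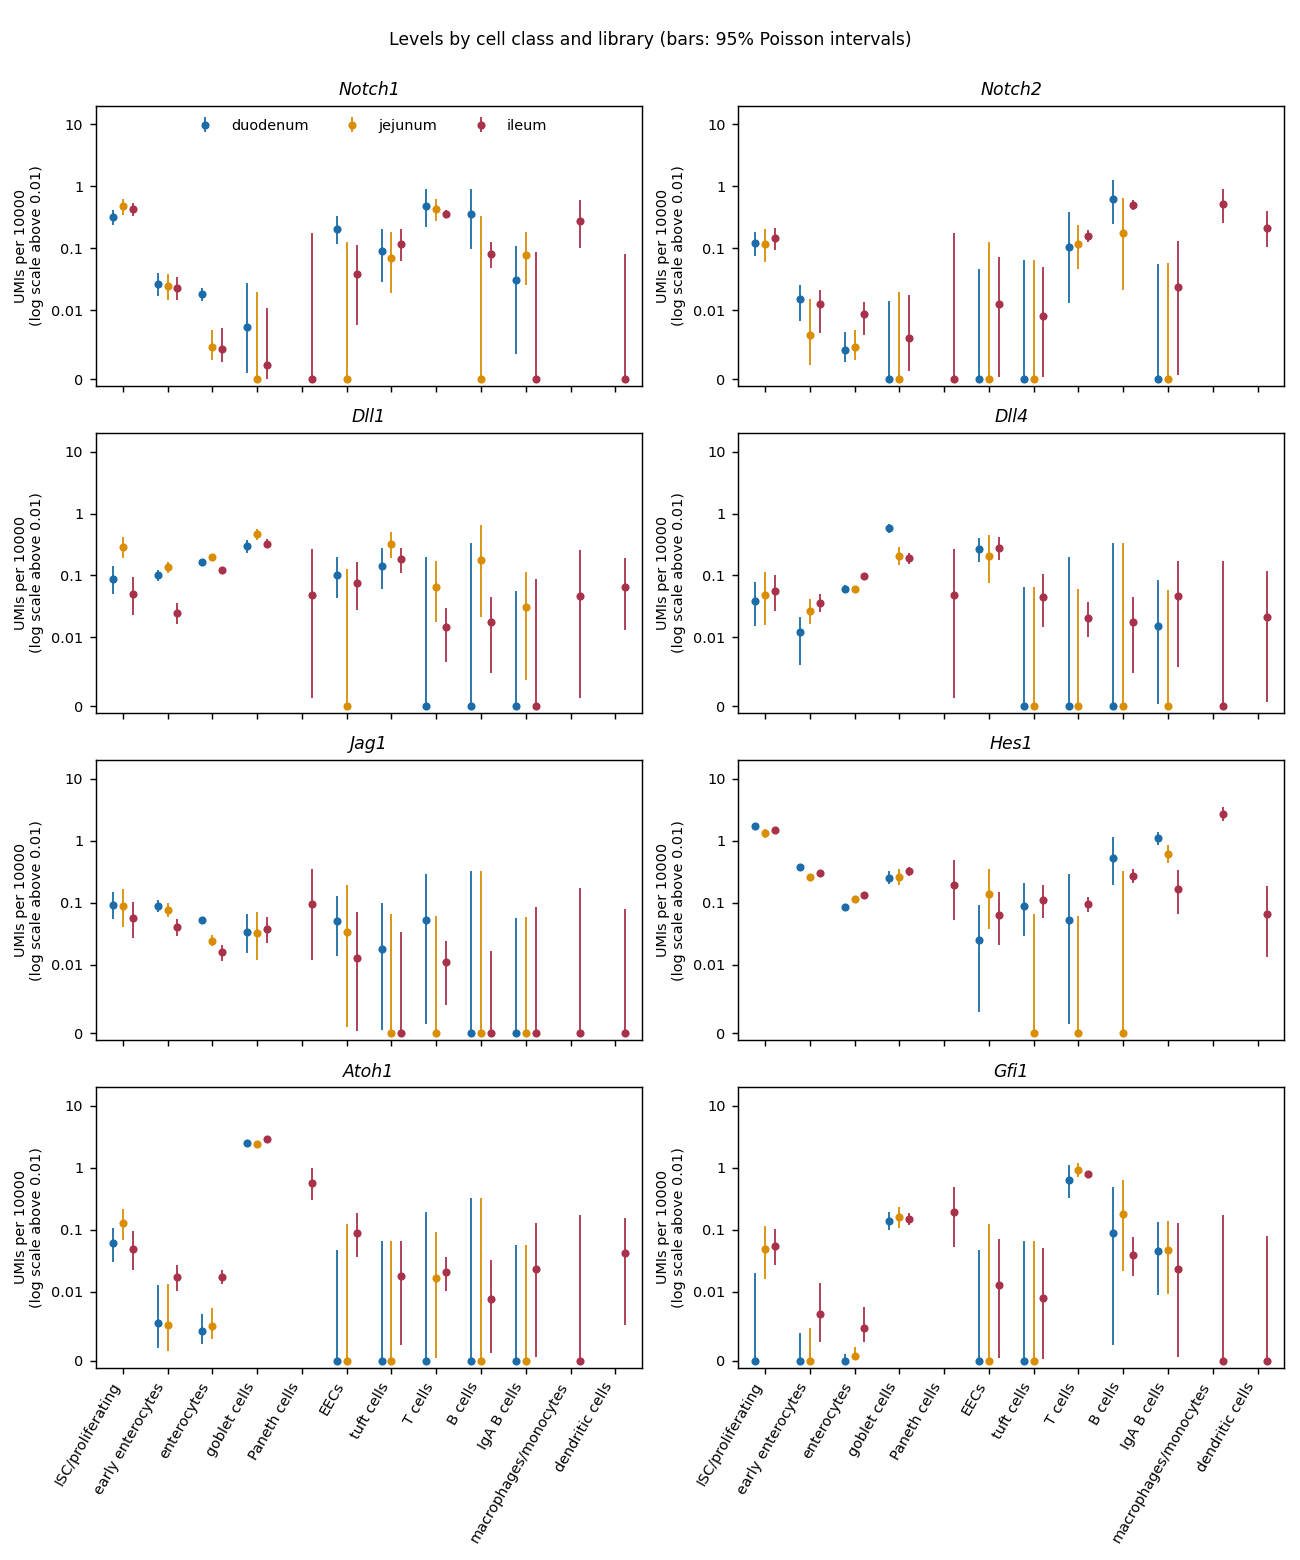
Level of each of the 8 genes (UMIs per 10000 UMIs, on an axis that is logarithmic above 0.01 and linear below) by cell class, with 1 point per library that held at least 10 cells of the class, coloured by segment, and bars for 95% Poisson intervals. Atoh1 stood at 2.42 to 2.96 in goblet cells and at 0.581 in ileal Paneth cells, with every other point at 0.128 or below, whereas Hes1 was at 1.31 to 1.74 in ISC/proliferating cells.

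Both receptors were higher in ISC/proliferating cells than in enterocytes. In the ISC/proliferating cells of the duodenum, jejunum and ileum, Notch1 was at 0.318, 0.473 and 0.428. In enterocytes it was at 0.0179, 0.00462 and 0.00439 in the same libraries. The groups did not overlap, and Notch1 was 4.93 higher on the log2 scale in ISC/proliferating cells (SE 0.52, adjusted p = 3.25e-07). Early enterocytes lay between, at 0.0263, 0.0244 and 0.0230, and were above enterocytes by 1.29 (SE 0.50, adjusted p = 0.0438). That last call was lost without the library block (adjusted p = 0.155), without the jejunum (0.283), without the ileum (0.147) and in cells with at most 20% mitochondrial UMIs (0.153). Notch2, the second receptor of the crypt, was at 0.121, 0.118 and 0.144 in ISC/proliferating cells and at 0.00424, 0.00462 and 0.00941 in enterocytes, a difference of 3.65 (SE 0.49, adjusted p = 4.96e-06). Cells with at least 1 Notch1 UMI were 43.5% of the ISC/proliferating class and 0.948% of enterocytes, with median depths of 18404 and 9893 UMIs. With each cell thinned to 800 UMIs the shares were 3.04% (1.23 to 6.17) and 0.105% (0.0526 to 0.188).

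Both receptors were lower in goblet cells than in ISC/proliferating cells. The 748 goblet cells held 3 Notch1 UMIs and 3 Notch2 UMIs, or 0.00314 per 10000 for each gene (0.000647 to 0.00918). The goblet to ISC/proliferating ratio was 0.00796 for Notch1 (0.00163 to 0.0236) and 0.0243 for Notch2 (0.00487 to 0.0744). Both were called lower in goblet cells (adjusted p = 4.24e-06 and 3.17e-05). Against enterocytes, neither receptor was called in goblet cells (adjusted p = 0.299 and 0.273), with ratios of 0.342 (0.0693 to 1.03) and 0.540 (0.109 to 1.65).

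Tuft cells and EECs held more Notch1 than goblet cells. Notch1 was at 0.0888, 0.0707 and 0.118 in tuft cells of the duodenum, jejunum and ileum, above enterocytes by 3.02 (SE 0.64, adjusted p = 7.39e-04). In EECs it was at 0.203, 0 and 0.0383, so that the duodenal library carried 16 of 19 UMIs. Notch1 was called higher in EECs than in enterocytes (2.62, SE 0.66, adjusted p = 0.00264) and lower than in ISC/proliferating cells (-2.31, SE 0.59, adjusted p = 0.00461). The first of these calls was lost without the duodenum (1.66, adjusted p = 0.156), and the second without the jejunum (adjusted p = 0.0530) or the ileum (0.0526). Against the 3 UMIs of goblet cells, Notch1 was called higher in tuft cells (22 UMIs, ratio 31.5, 9.45 to 164, adjusted p = 0.00162) and in EECs (ratio 32.4, 9.55 to 171, adjusted p = 0.00457), and the EEC call was lost without the duodenum (0.0829). Notch2 gave 1 UMI in the 171 EECs and 1 in the 297 tuft cells, and was called lower in EECs than in ISC/proliferating cells (ratio 0.0414, 0.00103 to 0.240, adjusted p = 6.74e-04). Within the EECs, Notch1 UMIs lay mainly in D cells, which make somatostatin (8 UMIs in 9 cells, 0.523 per 10000, 0.226 to 1.03), and in I cells, which make cholecystokinin (6 UMIs in 12 cells, 0.307, 0.113 to 0.668). None was found in 45 enterochromaffin (EC) cells (interval up to 0.0984). EC cells were shallower, with a median of 4097 UMIs against 19553 in D cells.

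Among lymphocytes, Notch1 was called higher in T cells. Notch1, which T cells need to develop, was at 0.477, 0.429 and 0.363 in T cells of the duodenum, jejunum and ileum, close to its level in ISC/proliferating cells, and at 0.356, 0 and 0.0800 in B cells. It was called higher in T cells than in B cells (1.84, SE 0.43, adjusted p = 0.00520), although with DESeq2 the adjusted p was 0.125, and the 22 B cell UMIs came mainly from the ileum. Notch2, which marginal zone B cells need, was at 0.106, 0.115 and 0.157 in T cells and at 0.623, 0.178 and 0.502 in B cells. The T to B ratio of Notch2 over all libraries was 0.307 (0.232 to 0.406), and Notch2 did not pass the filter on low counts for that test. Notch1 and Gfi1 were the members that passed it, and both were called higher in T cells, where 17.5% of the 5642 genes tested were called (8.84% higher, 8.65% lower).

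Among the ligands, Dll1 was highest in goblet cells but was also found in enterocytes and tuft cells. Dll1 was at 0.296, 0.463 and 0.328 in goblet cells, at 0.142, 0.318 and 0.182 in tuft cells, and at 0.164, 0.198 and 0.121 in enterocytes of the duodenum, jejunum and ileum. The goblet and enterocyte values did not overlap, and goblet cells were higher by 1.2 (SE 0.38, adjusted p = 0.0164). The call was lost without the library block (adjusted p = 0.146) and without the jejunum (0.0725). Tuft cells were not called against enterocytes (-0.17, SE 0.46, adjusted p = 0.783) and were lower than goblet cells (-1.37, SE 0.46, adjusted p = 0.0283). That last call was lost without TMM (adjusted p = 0.183), without the block (0.135), without the duodenum (0.120) and without the jejunum (0.0646). The share of cells with a Dll1 UMI, thinned to 800 UMIs, was 3.48% in goblet cells (2.28 to 5.05), 2.02% in tuft cells (0.745 to 4.35) and 1.32% in enterocytes (1.11 to 1.56). Unthinned it was 24.5%, 13.1% and 15.5%, and in T cells, which serve as a class without the gene, it was 0.162% thinned and 0.891% unthinned at a median depth of 4263 UMIs.

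Dll1 was lower in early enterocytes than in enterocytes. Early enterocytes were at 0.101, 0.136 and 0.025, below the enterocytes of the same library in each case, and fell by 1.34 (SE 0.39, adjusted p = 0.00930). Without the library block the adjusted p was 0.120. ISC/proliferating cells were at 0.0877, 0.286 and 0.05, so that the jejunal value lay above and the others below the enterocytes of the same library. The fitted difference of -1.19 (SE 0.44) had an adjusted p of 0.0242, and this call was lost without TMM (-0.41, adjusted p = 0.430), with DESeq2 (0.0622), without the block (0.148), in cells with at most 20% mitochondrial UMIs (0.119), without the duodenum (0.116) and without the ileum (0.0677). EECs were at 0.101, 0 and 0.0766, below enterocytes by -1.79 (SE 0.58, adjusted p = 0.0141) and below goblet cells by -2.99 (SE 0.57, adjusted p = 6.24e-04). The first of these was lost without TMM (adjusted p = 0.155), in cells with at most 20% mitochondrial UMIs (0.0782) and without the jejunum (0.0533).

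Dll4, the second ligand of the secretory lineage, was higher in goblet cells than in enterocytes. In goblet cells of the duodenum, jejunum and ileum it was at 0.581, 0.210 and 0.191. In EECs it was at 0.266, 0.204 and 0.281, and in enterocytes at 0.0613, 0.0605 and 0.0976. Both secretory classes lay above the enterocytes in all 3 libraries. Goblet cells were higher than enterocytes by 2.15 (SE 0.44, adjusted p = 6.84e-04), whereas the EEC difference of 0.99 (SE 0.50) had an adjusted p of 0.101. Without TMM the EEC difference was 1.80 (adjusted p = 0.00522), and in cells with at most 20% mitochondrial UMIs it was 1.42 (adjusted p = 0.0395). EECs and goblet cells were not called different in Dll4 (-1.17, SE 0.50, adjusted p = 0.0781), although this was called without the ileum (-1.45, adjusted p = 0.0461) and with no filter on low genes (-1.19, adjusted p = 0.0299).

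Against the ISC/proliferating cells, at 0.0384, 0.0492 and 0.0556, Dll4 was higher in goblet cells by 3.56 (SE 0.56, adjusted p = 4.97e-05) and in EECs by 2.39 (SE 0.63, adjusted p = 0.00537). Early enterocytes were lower than enterocytes by -1.86 (SE 0.46, adjusted p = 0.00322), at 0.0121, 0.0270 and 0.0365. The lower Dll4 of ISC/proliferating cells against enterocytes (-1.40, SE 0.56, adjusted p = 0.0331) was lost without TMM (adjusted p = 0.326), with DESeq2 (0.0834), in cells with at most 20% mitochondrial UMIs (0.193), without the jejunum (0.0997) and without the ileum (0.0922). Tuft cells set themselves apart from the other secretory classes, with 5 Dll4 UMIs in 297 cells, all from the ileum. They were below goblet cells by -4.52 (SE 0.74, adjusted p = 1.44e-04). They were also below enterocytes (-2.37, SE 0.81, adjusted p = 0.0205), a call lost without TMM (0.0707), in cells with at most 20% mitochondrial UMIs (0.141) and without the jejunum (0.109).

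Within the EECs, the EC cells, which make serotonin, carried the most Dll4, with 20 of the 49 UMIs in 14 of 45 cells and a level of 0.534 (0.326 to 0.824). I cells were at 0.460 (0.210 to 0.874), N cells, which make neurotensin, at 0.176 (0.0806 to 0.335), and K cells, which make gastric inhibitory polypeptide, at 0.125 (0.0341 to 0.321). The EC and K cell intervals did not overlap, while those of EC, I and N cells did. These subtypes were set by hormone thresholds and hold too few cells per library for a test.

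Jag1, a ligand of the other ligand family, was higher in early enterocytes than in enterocytes. It was at 0.0932, 0.0886 and 0.0556 in ISC/proliferating cells, at 0.0900, 0.0771 and 0.0403 in early enterocytes and at 0.0521, 0.0245 and 0.0157 in enterocytes. In each library the ISC/proliferating cells and early enterocytes lay above the enterocytes. Early enterocytes were higher by 0.91 (SE 0.32, adjusted p = 0.0267), a call lost without the block (adjusted p = 0.177) and without the jejunum (0.321). The ISC/proliferating difference of 0.69 (SE 0.37) had an adjusted p of 0.109, and without TMM it was 1.45 (adjusted p = 0.00360). Goblet cells were at 0.0342, 0.0323 and 0.0375 and were not called against enterocytes (adjusted p = 0.385). Tuft cells held 1 Jag1 UMI, with a ratio to enterocytes of 0.142 (0.00358 to 0.795) and to goblet cells of 0.126 (0.00310 to 0.752). They were called lower than enterocytes (adjusted p = 0.00608), which was lost without the jejunum (0.0588), and lower than goblet cells (adjusted p = 0.00427), which was lost without the jejunum (0.0537) and without the ileum (0.0968). The 24 Paneth cells held 3 Jag1 UMIs (0.0678, 0.0140 to 0.198), and the pooled levels of goblet cells (0.0356), EECs (0.0321) and enterocytes (0.0317) had overlapping intervals. B cells held no Jag1 UMI (interval up to 0.0149).

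**Figure D2:**
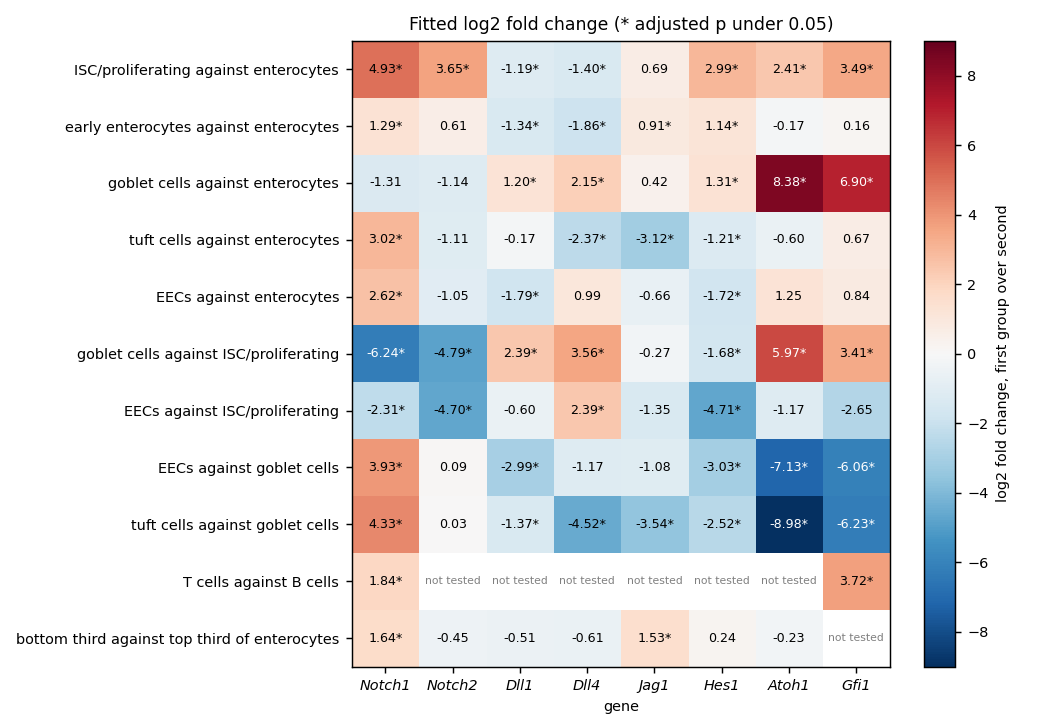
Heat map of the fitted log2 fold change (TMM scale, first group over second, as colour and printed value) of the 8 genes in the 11 comparisons, with a star where the adjusted p was under 0.05. Atoh1 and Gfi1 reach 8.38 and 6.90 in goblet cells against enterocytes and Notch1 reaches 4.93 in ISC/proliferating cells, and the value of a gene with 3 UMIs or fewer in a class depends on the prior count.

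Hes1, the target of Notch signalling, was higher in ISC/proliferating cells and in early enterocytes than in enterocytes. It was at 1.74, 1.31 and 1.49 in ISC/proliferating cells of the duodenum, jejunum and ileum, at 0.379, 0.257 and 0.296 in early enterocytes and at 0.0850, 0.115 and 0.133 in enterocytes. The 3 classes did not overlap. ISC/proliferating cells were above enterocytes by 2.99 (SE 0.32, adjusted p = 4.17e-07) and early enterocytes by 1.14 (SE 0.30, adjusted p = 0.00530). The second call was lost without the duodenum (0.76, adjusted p = 0.0681). Cells with a Hes1 UMI were 60.9% of ISC/proliferating cells, 34.8% of early enterocytes and 9.33% of enterocytes. Thinned to 800 UMIs the shares were 15.2% (10.8 to 20.5), 2.42% (1.61 to 3.48) and 1.03% (0.849 to 1.25), and in T cells, the class with least by this measure, 0.405% thinned and 1.86% unthinned.

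Goblet cells held more Hes1 than EECs and tuft cells. Hes1 was at 0.255, 0.264 and 0.322 in goblet cells, at 0.0253, 0.136 and 0.0639 in EECs and at 0.0888, 0 and 0.109 in tuft cells. Paneth cells (24 cells, 11 UMIs) had a pooled level of 0.249 (0.124 to 0.445), overlapping that of goblet cells (0.259 to 0.328). Goblet cells lay above every EEC and tuft value, above enterocytes by 1.31 (SE 0.32, adjusted p = 0.00277) and below ISC/proliferating cells by -1.68 (SE 0.32, adjusted p = 3.03e-04). EECs were below goblet cells by -3.03 (SE 0.52, adjusted p = 2.69e-04) and below ISC/proliferating cells by -4.71 (SE 0.49, adjusted p = 2.11e-06), and tuft cells were below goblet cells by -2.52 (SE 0.47, adjusted p = 4.94e-04). EECs were also below enterocytes (-1.72, SE 0.54, adjusted p = 0.0119), a call lost without TMM (0.154), without the duodenum (0.0536) and without the ileum (0.0942). The lower Hes1 of tuft cells against enterocytes (-1.21, SE 0.48, adjusted p = 0.0443) was lost without TMM (0.282), without the block (0.0541), without the cells richest in enterocyte markers (0.0874), without the jejunum (0.208) and without the ileum (0.0740).

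The highest pooled Hes1 level of all classes was outside the epithelium, in 26 macrophages/monocytes, at 6.10 (5.24 to 7.07). Of these cells 22 held a Hes1 UMI, and 1 jejunal cell held 67 of the 178 UMIs. The 19 ileal macrophages/monocytes were at 2.75. These cells also held the highest pooled Notch2 (0.651, 0.392 to 1.02) and Notch1 (0.446, 0.237 to 0.762), and the Notch2 interval overlapped that of B cells (0.409 to 0.589) and the Notch1 interval those of ISC/proliferating cells (0.339 to 0.456) and T cells (0.326 to 0.424).

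Atoh1, which goblet cells, Paneth cells and EECs need to form, had its highest levels in goblet and Paneth cells. It was at 2.56, 2.42 and 2.96 in goblet cells and at 0.00424, 0.00508 and 0.0176 in enterocytes of the duodenum, jejunum and ileum. The difference of 8.38 (SE 0.47, adjusted p = 1.79e-09) was the largest of the 8 genes in any comparison with enterocytes. A total of 2620 UMIs came from goblet cells, of which 73.0% held at least 1, against 0.823% of enterocytes. Thinned to 800 UMIs the shares were 17.1% (14.5 to 20.0) and 0.0766% (0.0331 to 0.151). Paneth cells, 24 in all, were at 0.680, 0 and 0.581, with 23 UMIs in 9 cells, and their pooled level of 0.520 (0.330 to 0.780) lay below that of goblet cells (2.64 to 2.85).

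EECs, which also arise from Atoh1-dependent progenitors, and tuft cells held little Atoh1 in these libraries. The 171 EECs held 7 UMIs, in 4 cells and all from the ileum, and were below goblet cells by -7.13 (SE 0.59, adjusted p = 2.16e-07). Their level of 0.0375 (0.0151 to 0.0773) overlapped that of T cells (0.0101 to 0.0341), and they were not called against enterocytes (adjusted p = 0.254) or ISC/proliferating cells (0.275). Without the ileum, EECs held no Atoh1 UMI, and the difference from ISC/proliferating cells was called (adjusted p = 0.00433). Tuft cells held 2 UMIs, a level of 0.00898 (0.00109 to 0.0324), and were called lower than goblet cells (ratio 0.00327, 0.000396 to 0.0118, adjusted p = 7.87e-08).

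In ISC/proliferating cells, Atoh1 was at 0.0603, 0.128 and 0.05, above enterocytes by 2.41 (SE 0.55, adjusted p = 9.52e-04) and below goblet cells, which were higher by 5.97 (SE 0.47, adjusted p = 5.87e-08). Its 33 UMIs came from 8 of the 230 cells. These 8 cells were somewhat deeper, with a median of 22906 UMIs against 18144 in the other 222. They also carried 13 of the 22 Dll4 UMIs of the class and 21 of the 54 Dll1 UMIs. The Dll4 UMIs were spread over 7 of the 8 cells, with 1 to 3 each. Of the Dll1 UMIs, 17 came from 1 jejunal cell, which also held 12 Atoh1 UMIs and 493 goblet marker UMIs per 10000. An ileal cell of the 8 held 770 goblet marker UMIs per 10000, whereas the other 222 cells had a median of 4.25 and a highest value of 197. Hes1 was at 1.16 (0.727 to 1.76) in the 8 cells and at 1.57 (1.45 to 1.69) in the rest, and Notch1 at 0.633 (0.327 to 1.11) and 0.384 (0.329 to 0.446), so both pairs of intervals overlapped. The 3 ileal cells of the 8 held no Hes1 UMI (interval up to 0.646), against 1.54 (1.36 to 1.73) in the other 94 ileal cells of the class. Of these 3 cells, 1 was the cell with 770 goblet marker UMIs per 10000. The intervals do not cover the spread between cells, and many other cells of the class also held no Hes1 UMI, so 3 cells cannot show a difference. A test over libraries was not possible with 3, 2 and 3 cells that held an Atoh1 UMI. In an alternative chosen after the data were seen, leaving out ISC/proliferating cells with 100 or more goblet marker UMIs per 10000 reduced the Atoh1 difference from enterocytes to 1.52 (adjusted p = 0.0339).

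Gfi1 joined Atoh1 in goblet cells but was highest in T cells. It was at 0.141, 0.162 and 0.152 in goblet cells and at 0, 0.000693 and 0.00471 in enterocytes. The difference was 6.90 (SE 0.79, adjusted p = 2.55e-06), and the pooled ratio was 96.5 (59.0 to 168). Goblet cells were above ISC/proliferating cells by 3.41 (SE 0.80, adjusted p = 0.00164). Without epithelial cells that held 3 or more T or B cell marker UMIs, this difference was 5.94 (adjusted p = 3.55e-04). That alternative was chosen after the data were seen. EECs and tuft cells held 1 Gfi1 UMI each, and both were called lower than goblet cells (adjusted p = 0.00155 and 0.00119). The 24 Paneth cells held 5 UMIs (0.113, 0.0367 to 0.264), a level overlapping that of goblet cells (0.127 to 0.177). In T cells Gfi1 was at 0.636, 0.940 and 0.787 and in B cells at 0.0890, 0.178 and 0.0400, a difference of 3.72 (SE 0.43, adjusted p = 5.44e-06). A Gfi1 UMI was found in 30.8% of T cells and 15.6% of goblet cells, or 5.91% (4.66 to 7.38) and 1.34% (0.643 to 2.44) when thinned, against 0.0191% thinned and 0.172% unthinned of enterocytes.

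The Gfi1 of the ISC/proliferating class moved with lymphocyte markers. Gfi1 was at 0, 0.0492 and 0.0556 in this class, above enterocytes by 3.49 (SE 0.94, adjusted p = 0.00337). The summed level of the 10 T cell markers in the class ranged from 0.00548 to 16.1 per 10000 over the libraries, with none of them at 0, against 334 to 450 in T cells, and that of the 7 B cell markers from 0.0492 to 0.148. Of the 230 cells, 16 (6.96%) held 3 or more T or B cell marker UMIs, and 13 of these were ileal. These 16 cells held 13 of the 15 Gfi1 UMIs, against 48 of 719 Hes1, 19 of 183 Notch1, 11 of 60 Notch2 and 0 of 33 Atoh1 UMIs. Without epithelial cells of this kind, an alternative chosen after the data were seen, the Gfi1 difference was 1.07 (adjusted p = 0.568), and the call was also lost without the jejunum (2.77, adjusted p = 0.0772). The Notch1, Notch2, Hes1 and Atoh1 differences stayed between 2.53 and 4.95 and were called.

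Within the ISC/proliferating class, cells with a UMI of Lgr5, the stem cell marker, had a higher Hes1 level in each library. Hes1 was at 2.59, 1.79 and 2.25 in the Lgr5-positive cells of the duodenum, jejunum and ileum and at 1.36, 1.15 and 0.838 in the others. Notch1 was at 0.456, 0.755 and 0.576 in the Lgr5-positive cells and at 0.255, 0.380 and 0.300 in the others. In each library the positive cells had the higher value, and the pooled intervals did not overlap for Hes1 (2.07 to 2.54 against 1.02 to 1.26) or Notch1 (0.454 to 0.688 against 0.242 to 0.371). Those of Notch2 (0.0881 to 0.209 against 0.0873 to 0.171) and Dll4 did overlap. The 72 positive cells were deeper, with a median of 25567 UMIs against 16007 in the 158 others, and the part of depth was not tested. All 15 Gfi1 UMIs of the class lay in the cells without an Lgr5 UMI. Of these, 13 were in the cells with 3 or more T or B cell marker UMIs. The cells with 493 and 770 goblet marker UMIs per 10000 held 1 each, so these UMIs do not describe the other cells without an Lgr5 UMI.

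**Figure D3:**
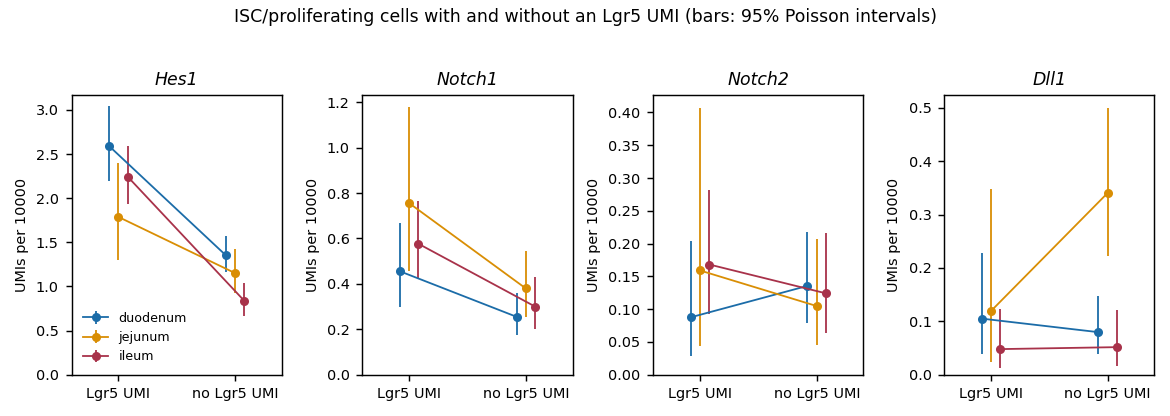
Levels (UMIs per 10000 UMIs) of Hes1, Notch1, Notch2 and Dll1 in ISC/proliferating cells with and without an Lgr5 UMI, with 1 point per library, a line joining both sides of a library, and exact Poisson 95% intervals as bars. Hes1 lay between 1.79 and 2.59 with an Lgr5 UMI and between 0.838 and 1.36 without, with no overlap.

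Among goblet cells, the ligands and Gfi1 did not separate by Atoh1 detection. With each cell thinned to 2000 UMIs, 257 goblet cells held an Atoh1 UMI and 417 did not. A Dll1 UMI was found in 8.95% (5.76 to 13.1) of the first and 5.52% (3.53 to 8.16) of the second. For Dll4 the shares were 6.23% (3.60 to 9.91) and 6.71% (4.51 to 9.56), for Gfi1 2.72% and 3.12%, and for Hes1 3.5% and 4.32%. All 4 pairs of intervals overlapped, so no difference was detectable at this depth. In goblet cells with a UMI of Mki67, Top2a, Ube2c or Birc5, genes of dividing cells, Dll1 was at 0.531 (0.393 to 0.702), against 0.326 (0.289 to 0.366) in the other 695. By library these values were 0.226, 0.550 and 0.623 against 0.301, 0.453 and 0.292, so the order held in the jejunum and ileum and not in the duodenum. The 53 cycling goblet cells were deeper, with a median of 15515 UMIs against 9723, and their Atoh1 level was 2.41 against 2.78.

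Along the villus, Jag1 was higher at the bottom. Early and mature enterocytes of each library were divided into 3 equal parts by a score of villus tip genes (such as Ada and Nt5e) minus villus bottom genes (such as Reg1 and Ccl25). Every villus bottom gene but Il18 was also a naming marker of early enterocytes. The parts are therefore not independent of the comparison of early enterocytes with enterocytes. Of the 11604 cells, 5.99% lay within 0.05 score units of a limit, so a part is a range and not a cell type. The median cell of the bottom and of the top part held no T or B cell marker UMI. The median level of ISC/proliferating markers was 0.595 per 10000 at the bottom and 0 at the top, and that of goblet markers was 4.18 and 6.24. Jag1 was at 0.0706, 0.0558 and 0.0348 in the bottom part of the duodenum, jejunum and ileum and at 0.0320, 0.00906 and 0.00633 in the top part, with the middle part between in every library. The bottom part was higher by 1.53 (SE 0.29, adjusted p = 0.00217). Notch1 was at 0.0252, 0.0156 and 0.0148 in the bottom and at 0.0109, 0.000697 and 0.00395 in the top part, a difference of 1.64 (SE 0.48, adjusted p = 0.0172). These were the 2 members called of the 7 tested, both higher at the bottom, where 62% of the 11405 genes tested were called (33.5% higher and 28.5% lower), and without the block neither was (Jag1 1.41, adjusted p = 0.127, and Notch1 1.49, adjusted p = 0.196). Notch1 was also lost in cells with at most 20% mitochondrial UMIs (adjusted p = 0.352), without the jejunum (0.0973) and without the ileum (0.0625).

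Hes1 was at 0.193, 0.163 and 0.230 in the bottom part and at 0.125, 0.127 and 0.107 in the top part. The values did not overlap, but the TMM-scaled difference was 0.24 (SE 0.24, adjusted p = 0.417), and without TMM, where the median gene was at 0.55 instead of 0.09, it was 0.68 (adjusted p = 0.0377). The share of calls that were higher in the bottom part moved from 54.0% to 74.9% with that change. Dll1 had its highest level in the middle part, at 0.185, 0.226 and 0.168, above both other parts of the same library. At the bottom it was at 0.123, 0.178 and 0.0718 and at the top at 0.162, 0.165 and 0.0640, so the bottom was the lower only in the duodenum. The TMM-scaled difference of -0.51 between bottom and top (SE 0.22) had an adjusted p of 0.0698, and without TMM it was -0.06 (adjusted p = 0.848). On the TMM scale it was called with DESeq2 (-0.59, adjusted p = 0.0353), in cells with at most 20% mitochondrial UMIs (0.0459), without the ileum (0.0293) and with parts set by the bottom genes alone (0.0133).

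**Figure D4:**
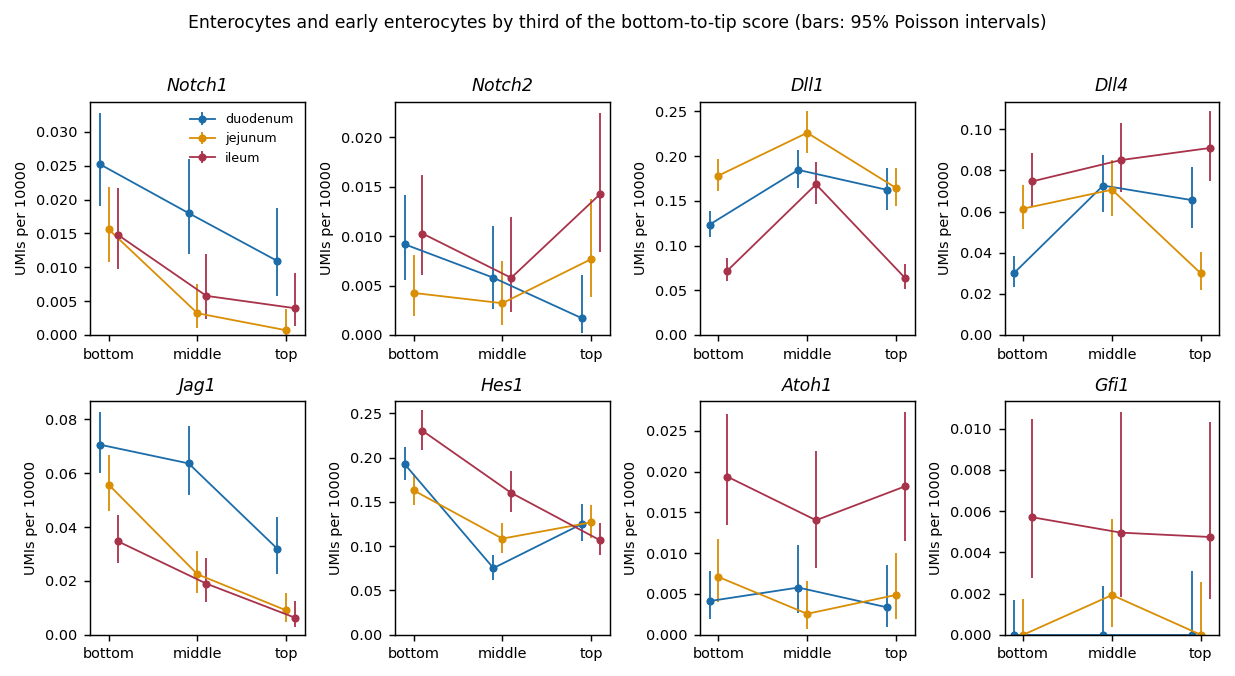
Levels (UMIs per 10000 UMIs) of the 8 genes in the bottom, middle and top parts of the villus score, with 1 line per library and 95% Poisson intervals as bars. Jag1 goes from 0.0706, 0.0558 and 0.0348 in the bottom part to 0.0320, 0.00906 and 0.00633 in the top part, and Dll1 is highest in the middle part of each library.

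The other genes of the pathway were counted from fixed lists of 63 genes (further receptors and ligands, glycosyltransferases, proteases, the nuclear complex, other targets, ligand and receptor turnover, and secretory transcription factors). Between ISC/proliferating cells and enterocytes, 28 of the 47 tested were called, 15 higher and 13 lower, a share of 59.6% where 70.1% of all genes were called. Olfm4, a Notch target and stem cell marker, was at 22.7 in ISC/proliferating cells and 0.0328 in enterocytes (8.76, SE 0.42, adjusted p = 2.39e-10). Sox4 and Sox9, factors of progenitors, and Foxa2 were also among the 4 with the largest change (7.88, 5.65 and 5.36). In EECs against ISC/proliferating cells, Nrarp, a feedback target of Notch, was lower, at 0.0268 against 0.366 (-3.76, SE 0.78, adjusted p = 9.40e-04), and in this comparison 24 of the 47 genes (51.1%) were called, 17 higher and 7 lower, where 46.2% of all genes were.

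In goblet cells 24 of the 47 (51.1%) were called against enterocytes, 16 higher and 8 lower, near the 45.6% of all genes. The 4 with the largest change were Spdef, which matures goblet and Paneth cells (1.56 against 0.00512), Foxa3, Neurl1a, a ubiquitin ligase for Notch ligands (0.229 against 0.000434), and Foxa2. Neurl1a was higher in all 3 secretory classes against enterocytes, at 0.700 in tuft cells and 0.0750 in EECs, and the ISC/proliferating cells held no UMI of it. In tuft cells 25 (53.2%) were called, 16 higher and 9 lower, near the 53.9% of all genes. The largest changes there were led by Gfi1b (0.826), a paralogue of Gfi1, and Pou2f3 (1.65), the factor that defines tuft cells. Gfi1b had no UMI in goblet cells, whereas Gfi1 had 144 in goblet cells and 1 in tuft cells. In EECs 33 (70.2%) were called, 20 higher and 13 lower, where 60.1% of all genes were, led by Insm1 (2.85 against 0.000954), an endocrine factor, and against goblet cells Jag2, a further ligand, was higher in EECs (0.284 against 0.00837, adjusted p = 3.44e-04). Along the villus 24 of 39 (61.5%) were called, 10 higher at the bottom and 14 lower, near the 62% of all genes. Psen2, a subunit of the protease complex that cuts Notch, was higher at the bottom by 3.05 (SE 0.36, adjusted p = 2.23e-04), and Klf4, a factor of differentiated epithelium, was lower, at -2.61 (SE 0.17, adjusted p = 2.97e-05). In T against B cells 3 of 20 (15%) were called, where 17.5% of all genes were, and all 3 were higher in T cells: Lfng, which modifies Notch, Dtx4 and Furin, of which Dtx4 was lost with DESeq2 (adjusted p = 0.0573).

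The genes whose pattern was most like that of each member were ranked by Pearson's correlation of log2(UMIs per 10000 + 0.05) over 30 sums of a class in a library, among 8485 genes. These sums share libraries and depth, so the correlations describe and carry no test. Atoh1 was closest to Tpsg1 (0.976), Ern2 (0.960), Rep15 (0.944), Pla2g10 (0.942) and Spdef (0.940). Dll4 was closest to Mcf2l (0.891) and Muc3a (0.889), Jag1 to Nfia (0.850) and Homer2 (0.849), and Notch2 to Fam111a (0.952). Notch1 was closest to Myg1 (0.866) and Smim11 (0.855), and Gfi1 to Il2rb (0.829) and Cd96 (0.811). Dll1 and Hes1 had no neighbour above 0.79, with Camsap3 (0.786) and Gm42031 (0.684) leading. Between members, Atoh1 correlated at 0.636 with Dll4 and 0.518 with Dll1, Notch1 at 0.553 with Notch2, and Hes1 at 0.131 with Atoh1.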

How the data were processed

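The authors made the count matrices with Cell Ranger 3.0.2 against GRCm38 (mm10), per the labels; the values are deposited raw counts of UMIs per gene and barcode, with no normalization. The study's filter was applied: total UMIs between 800 and 50000, detected genes between 200 and 6000, and a mitochondrial share no higher than 40%. Seurat 5.3.0 (R 4.3.3) clustered the cells at resolution 0.8 from 30 components of 2000 variable genes, leaving out the 71 pathway genes. Rules for naming mixed clusters were set after the clusters were seen, and 1671 cells stayed unnamed. The 8 members and the lists were chosen with earlier results of these data known. Scrublet (scanpy 1.11.5) called 146 ileal cells and none in the other libraries, where it is taken not to have worked; these cells were kept, and were left out in an alternative.

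UMIs were summed per class and library (at least 10 cells) and tested with edgeR 4.0.16 (quasi-likelihood, TMM, library as block, low genes filtered); DESeq2 1.42.0 was an alternative. The library pairs its classes by construction: deviations of classes correlated at a median of 0.328 within a library (45 pairs, lowest 0.0143) and -0.118 between libraries. Deviations were taken from the mean of each class over its libraries. Positive values within libraries by themselves then push those between libraries below 0, so the latter add no separate information. On simulated counts, 22.5% of 200 genes changed by 1 on the log2 scale were recovered for ISC/proliferating cells against enterocytes and 8.5% for EECs against enterocytes, in 11250 genes each. These counts had the same mean profile in all classes apart from the changed genes, and a common spread for all genes. The shares therefore do not give the power of the tests on the data. Total depth was 98518847, 87656078 and 78074516 UMIs in the duodenum, jejunum and ileum. Named genes were the 8 members, the 4 genes of the lists with the largest called change in a comparison plus genes that define a class, and the 5 most correlated genes per member; some names are not reported here.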

Additional observations from a re-analysis of the deposited data

Results flagged for a closer look

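An unnamed cluster of 401 cells, with Trgv2 and Bcl2 among its leading genes and used in no comparison, held Notch1 at 1.03 UMIs per 10000 (0.782 to 1.34, 56 UMIs). This lies above the ISC/proliferating cells (0.394) and the T cells (0.373), and it stands out because it was measured in cells outside the named classes. The cluster was shallow, with a median of 1201 UMIs per cell, and also held Gfi1 at 0.647 (0.450 to 0.899) and Notch2 at 0.185 (0.0886 to 0.340). The part of its depth in these levels was not tested. With 1 library per segment, no group of samples was large enough to look for a sample standing apart.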

How the results depend on the processing

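Goblet against ISC/proliferating cells kept 7 members called under every alternative. At resolutions 0.5 and 1.2 these clusters again held 748 and 230 cells, so those 2 alternatives could hardly change that count. Counts of members called moved past 1.5 times as follows, besides the ranges without 1 library. For members tested in the main fit, calls that changed are given with each gene in the text above, except 3 gained calls. Members that the main fit of T against B cells did not test had no call to compare. Where an alternative called them, they enter the counts only. Without the library block (the replicate block), early enterocytes against enterocytes gave 2 and the bottom against the top of the villus score 0. Without TMM, tuft cells against enterocytes gave 2. T against B cells gave 1 with DESeq2 and 4 with no filter on low genes. Leaving out 1 library gave 1 to 4 for tuft cells, 1 to 2 for EECs, 3 to 4 for early enterocytes, 4 to 5 for goblet cells and 5 to 6 for ISC/proliferating cells, each against enterocytes, 3 to 4 for EECs against ISC/proliferating cells, 4 to 6 and 5 to 6 for EECs and tuft cells against goblet cells, 4 for T against B cells, and 2 to 3 for the villus score. The 3 gained calls were Jag1 in EECs against ISC/proliferating cells without the cells richest in enterocyte markers (-1.68, adjusted p = 0.0375), which brought that count to 5, and, for the bottom against the top of the villus score, Dll4 without the jejunum (-1.10, 0.0333) and Notch2 without the duodenum (-1.21, 0.0390). The cause was not tested. Gfi1b in goblet against ISC/proliferating cells (0 and 12 UMIs) ran from -7.46 without the duodenum to 0.029 without the ileum, a reversal (adjusted p = 1). Of the other values of single genes, 2154 kept their call or, for levels, stayed inside the main interval. A further 60 lost a call, 14 gained one and 13 levels moved out of that interval. A change of sign between 2 values that were not called was counted as kept. For example, Atoh1 in EECs against enterocytes ran from -5.18 to 1.56 over the fits without 1 library. The class with the highest level was the same for 8 of 8 members under all alternatives for levels. ISC/proliferating cells with and without Atoh1 could not be fitted, and thinning to 2000 UMIs gave no sums for that comparison. Depth limits the rare classes most: an adjusted p above 0.05 there does not show equal levels. Leaving out cells with lymphocyte or goblet markers was chosen after seeing the data.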

Other observations

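Other unnamed clusters also carried members. A cluster of 1077 cells, led by Gm26917, 2900060B14Rik and Fgf15, held Hes1 at 0.604 (0.542 to 0.671, 348 UMIs), with Jag1 at 0.0642 and Notch1 at 0.0156. A cluster of 53 cells led by Dcn, Sparc and Pf4 held Notch2 at 0.565 (0.372 to 0.822), Hes1 at 0.502 (0.322 to 0.748), Dll4 at 0.272 (0.145 to 0.465), Notch1 at 0.230 (0.115 to 0.412) and Jag1 at 0.209 (0.1 to 0.385). Macrophage/monocyte markers were high in this cluster, while stromal genes such as Dcn and Col3a1 led it. Whether its receptors and ligands came from the same cells was not tested. A cluster of 26 cells led by Siglech, Cox6a2 and Cd300c held Notch1 at 0.592 (0.315 to 1.01), and one of 74 cells led by Cd209a held Notch2 at 0.386 (0.278 to 0.522). None of the 4 clusters held more than 14 Atoh1 UMIs.

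IgA B cells, 87 in all, held Hes1 at 1.10, 0.613 and 0.164 in the duodenum, jejunum and ileum, with 33 of 87 cells holding a UMI, against 0.534, 0 and 0.271 in B cells.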
